A study of Mus musculus with 12 samples.

Results

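The muscle nicotinic acetylcholine receptor is built from the products of 5 genes, *Chrna1* (α1), *Chrnb1* (β1), *Chrnd* (δ), *Chrne* (ε) and *Chrng* (γ). These 5 genes were taken from the 27179 mouse genes of the count table by NCBI Gene ID, as the known subunits of the muscle receptor. All 5 passed the filter on low counts that left 15502 genes for testing. The counts come from 12 tibialis anterior (TA) muscles of 6 male wild-type C57BL/6N mice, which were 6 to 8 weeks old on arrival and were used within 2 weeks. In each mouse, 10 μg of empty plasmid (pcDNA3) was electroporated into the TA of one leg (Control, n = 6), and 10 μg of plasmid carrying the full-length human long noncoding RNA *FRAIL1* behind the cytomegalovirus promoter went into the TA of the other leg (*FRAIL1*, n = 6). Both legs therefore received hyaluronidase, plasmid DNA and the electrical pulses, and both TAs were taken on day 7. A plasmid delivered this way reaches part of the fibers, the cytomegalovirus promoter is not specific to muscle fibers, and the RNA was extracted from whole TA tissue. The human *FRAIL1* transcript is not among the mouse genes counted, so its own level was not analysed here.

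The receptor is the ion channel that turns acetylcholine released by the motor nerve into depolarization of the muscle fiber. It is a ring of a pair of α1 subunits with one β1, one δ and one further subunit, which is γ in the fetal receptor and ε in the adult receptor. During early postnatal life *Chrng* is switched off and *Chrne* is switched on in the nuclei beneath the synapse. In an innervated adult fiber the subunit genes are transcribed mainly by those few nuclei, whereas after denervation α1, β1, δ and γ transcripts appear along the whole fiber. Regulatory sequences near these genes include E-boxes (CANNTG), which bind basic helix-loop-helix proteins such as myogenin, and the N-box (CCGGAA), which binds Ets family proteins such as GABP and has been linked to transcription under the synapse.

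The start regions of the subunit genes are shown to describe where these motifs occur. Whether motif content goes with the size of the change was not tested. RefSeq promoter windows on GRCm38.p6, from 250 bases before to 50 bases after the annotated start, were available for 4 of the 5 genes, all but *Chrnd*. They lie at chr2:73580289-73580588 on the minus strand (*Chrna1*), chr11:69795888-69796187 on the minus strand (*Chrnb1*), chr11:70619145-70619444 on the minus strand (*Chrne*) and chr1:87205561-87205860 on the plus strand (*Chrng*). Each is printed 5′ to 3′, with E-boxes and N-boxes in capitals.
*Chrna1*: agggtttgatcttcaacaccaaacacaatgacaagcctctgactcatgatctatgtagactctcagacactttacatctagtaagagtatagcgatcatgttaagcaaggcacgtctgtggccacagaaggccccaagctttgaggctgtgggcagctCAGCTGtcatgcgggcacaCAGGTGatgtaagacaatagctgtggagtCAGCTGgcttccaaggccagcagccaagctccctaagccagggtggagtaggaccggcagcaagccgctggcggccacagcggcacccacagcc
*Chrnb1*: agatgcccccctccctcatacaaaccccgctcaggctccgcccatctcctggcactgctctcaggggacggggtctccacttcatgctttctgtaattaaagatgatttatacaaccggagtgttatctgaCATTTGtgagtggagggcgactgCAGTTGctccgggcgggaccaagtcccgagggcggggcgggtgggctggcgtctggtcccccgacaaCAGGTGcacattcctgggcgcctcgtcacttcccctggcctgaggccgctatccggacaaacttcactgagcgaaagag
*Chrne*: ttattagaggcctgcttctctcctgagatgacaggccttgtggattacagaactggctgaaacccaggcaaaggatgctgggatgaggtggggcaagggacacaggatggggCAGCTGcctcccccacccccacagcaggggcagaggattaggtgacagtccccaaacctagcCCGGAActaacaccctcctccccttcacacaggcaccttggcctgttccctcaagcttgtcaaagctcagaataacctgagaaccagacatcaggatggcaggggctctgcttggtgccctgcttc
*Chrng*: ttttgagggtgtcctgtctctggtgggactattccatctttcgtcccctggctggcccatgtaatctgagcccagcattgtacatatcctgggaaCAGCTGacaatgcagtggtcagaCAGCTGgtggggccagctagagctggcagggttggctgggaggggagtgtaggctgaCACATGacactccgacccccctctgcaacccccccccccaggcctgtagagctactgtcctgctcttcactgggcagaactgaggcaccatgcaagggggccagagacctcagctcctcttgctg
Both motifs were searched on both strands, and no match overlapped another. The *Chrna1* window held 3 E-boxes, which began 92, 73 and 44 bases before the start, and the first and last of these read CAGCTG. The *Chrng* window also held 3 E-boxes, 155, 132 and 75 bases before the start, of which the farther pair read CAGCTG. The *Chrnb1* window held 3 E-boxes without a CAGCTG, at 119, 96 and 29 bases before the start. The *Chrne* window held 1 E-box, a CAGCTG at 138 bases before the start, and was the only one of the 4 with an N-box, at 76 bases before the start. Of 32851 mouse promoter windows of this length, 72.3% held at least 1 E-box, 17.6% at least 3, 16.3% at least 1 CAGCTG, 1.90% at least 2 CAGCTG and 14.9% an N-box. A match is a description of the letters and not a measured binding site.

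*Chrnd* and *Chrng* are neighbours on chromosome 1 (GRCm38), *Chrnd* from 87190597 to 87200070 and *Chrng* from 87205811 to 87211835, on the same strand and 5740 bases apart. *Chrnb1* (69784036 to 69795966) and *Chrne* (70614883 to 70619213) lie on chromosome 11, 818916 bases apart, and *Chrna1* lies on chromosome 2 from 73563281 to 73580338. None of the 5 shared exon bases with another annotated gene on either strand. The only stretch of at least 100 bases with 98% identity to another gene was 122 bases of *Chrna1* that match *Gtpbp4*.

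Total counts ranged from 45018389 to 59309210 in Control muscles and from 44848322 to 60527385 in *FRAIL1* muscles, and the lowest count of any of the 5 genes was 93 reads (*Chrng* in Control muscle 6). The 6 markers of fast skeletal muscle fixed for the tissue check were abundant in every muscle (*Acta1* 34540 CPM and *Myh4* 45860 CPM on average in Control muscles, where CPM is the library-scaled count of a gene after TMM scaling). The 4 heart markers *Myh6*, *Tnni3*, *Nppa* and *Nppb* averaged 6.41, 0.996, 0.132 and 0.0292 CPM in Control muscles. *FRAIL1* muscle 5 stood apart on the first principal component (59.5, against 25.8 for the next muscle), and results are given without it where it matters. Because the tissue was sequenced in bulk, a change in the number of cells or nuclei that express a gene and a change in RNA per cell cannot be told apart.

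All 5 subunit mRNAs were more abundant in *FRAIL1* than in Control muscles, with *Chrng*, *Chrna1* and *Chrnd* at 3.67, 2.75 and 2.33 times the Control mean and *Chrnb1* and *Chrne* at 1.66 and 1.29 times. All 5 passed the threshold of 0.05 on the Benjamini-Hochberg adjusted p-value of edgeR's quasi-likelihood test, compared with 4.43% of all 15502 genes tested that were higher and 6.28% that differed in either direction. For 4 of the 5, all but *Chrne*, each of the 6 *FRAIL1* values lay above each of the 6 Control values, which was so for 3.12% of all genes tested. By log2 fold change, 0.168% of the tested genes lay above *Chrng*, 0.626% above *Chrna1*, 1.11% above *Chrnd*, 4.05% above *Chrnb1* and 13.6% above *Chrne*. The median log2 fold change of all genes tested was 0.00959, a value that TMM scaling holds near 0, so changes are relative to the bulk of the genes.

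**Figure D1:**
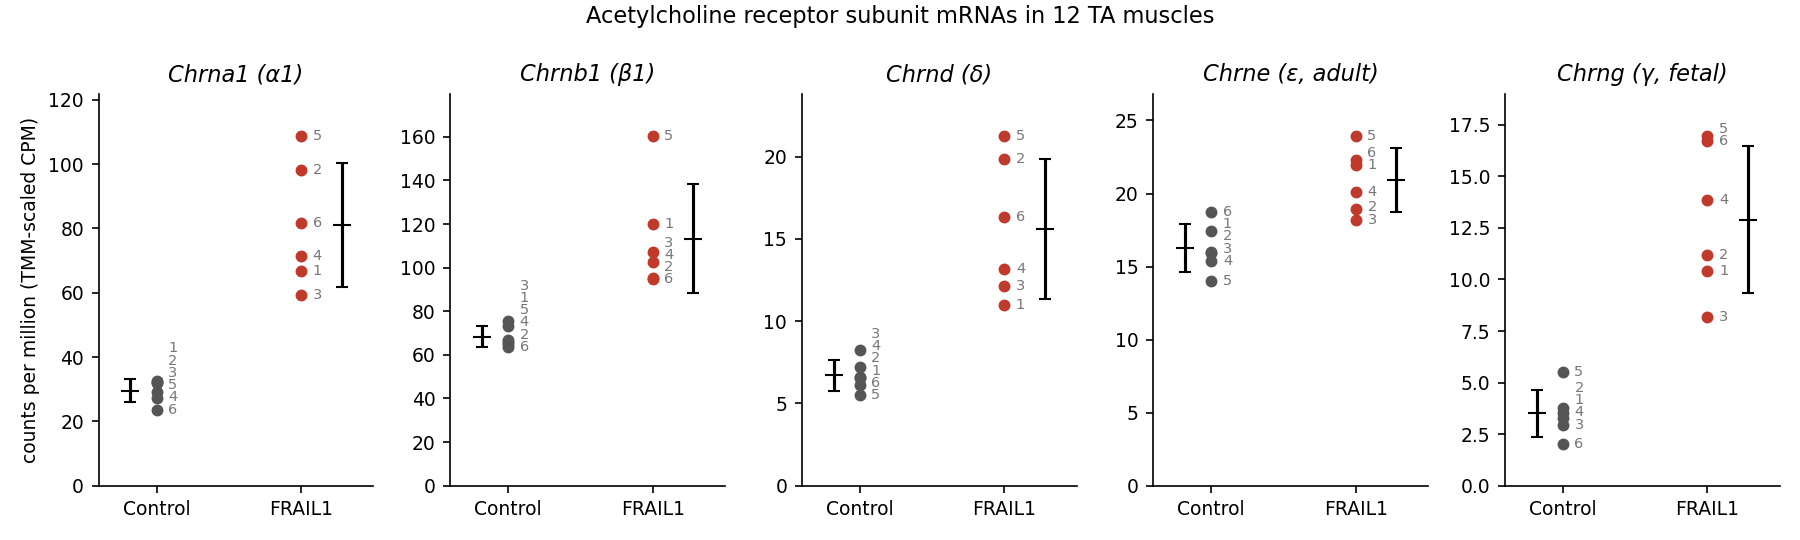
Level of each subunit mRNA in the 12 TA muscles, in TMM-scaled CPM, with a linear axis from 0. Points are muscles, their replicate numbers are stacked beside them in the order of the values, and the horizontal tick with its bar beside each group is the mean ± SD (n = 6). The groups are separate for *Chrna1*, *Chrnb1*, *Chrnd* and *Chrng* and overlap for *Chrne*, in which *FRAIL1* muscle 3 (18.2 CPM) lies below Control muscle 6 (18.7 CPM).

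*Chrng*, which encodes the γ subunit of the fetal receptor, had the largest fold change of the 5. Control muscles measured between 2.04 and 5.50 CPM with a median of 3.41, and *FRAIL1* muscles between 8.17 and 17.0 CPM with a median of 12.5. The groups did not overlap, with Control muscle 5 the highest of its group and *FRAIL1* muscle 3 the lowest of the other. The means were 3.51 ± 1.14 and 12.9 ± 3.56 CPM (SD, n = 6 each), a log2 fold change of 1.88 (standard error 0.228, edgeR adjusted p = 0.00160). The transcript was detected in every Control muscle, at 93 to 234 reads, so the adult TA that received empty plasmid was not at 0 for the fetal subunit.

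*Chrna1* encodes the acetylcholine-binding α1 subunit, which both receptor forms contain. It ranged from 23.7 to 32.6 CPM in Control muscles (median 30.5) and from 59.2 to 109 CPM in *FRAIL1* muscles (median 76.6). The lowest *FRAIL1* muscle was well above the highest Control muscle, and *FRAIL1* muscles 5 and 2 were the highest. The means were 29.5 ± 3.56 and 81.0 ± 19.2 CPM (SD, n = 6 each), a log2 fold change of 1.46 (standard error 0.142, edgeR adjusted p = 0.000339).

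*Chrnd*, which encodes the δ subunit that forms a ligand-binding interface with α1 in both forms, was present at a lower level and was also higher in *FRAIL1* muscles. It ranged from 5.50 to 8.26 CPM in Control muscles (median 6.57) and from 11.0 to 21.3 CPM in *FRAIL1* muscles (median 14.8). The groups were separate, and *FRAIL1* muscles 5 and 2 were again the highest. The means were 6.70 ± 0.946 and 15.6 ± 4.26 CPM (SD, n = 6 each), a log2 fold change of 1.22 (standard error 0.162, edgeR adjusted p = 0.00209).

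*Chrnb1* encodes the β1 subunit, which is the subunit tied most closely to rapsyn-dependent clustering. It ranged from 63.6 to 75.5 CPM in Control muscles (median 66.2) and from 94.7 to 161 CPM in *FRAIL1* muscles (median 105). The groups were separate, and *FRAIL1* muscle 5 lay well above the next highest *FRAIL1* muscle, at 120 CPM. The means were 68.3 ± 4.93 and 113 ± 25.0 CPM (SD, n = 6 each), a log2 fold change of 0.73 (standard error 0.114, edgeR adjusted p = 0.00391). Without *FRAIL1* muscle 5 it was 0.60 (adjusted p = 0.000153).

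*Chrne*, which encodes the ε subunit of the adult receptor, changed least. It ranged from 14.0 to 18.7 CPM in Control muscles (median 16.0) and from 18.2 to 24.0 CPM in *FRAIL1* muscles (median 21.0). The groups overlapped, since 5 of the 6 *FRAIL1* values lay above every Control value and muscle 3 did not. The means were 16.3 ± 1.64 and 20.9 ± 2.20 CPM (SD, n = 6 each), a log2 fold change of 0.36 (standard error 0.0828, edgeR adjusted p = 0.0227). The call lay close to the threshold: the adjusted p was 0.0508 without Control muscle 2, 0.0519 without Control muscle 3 and 0.0567 without *FRAIL1* muscle 1. In these fits the log2 fold change of *Chrne* was 0.3585, 0.3572 and 0.3473. Over all genes they called 413, 403 and 364, against 974 with all muscles. The other 4 subunit genes stayed past the threshold in each of the 24 alternative settings tried, with log2 fold changes of 1.76 to 2.04 for *Chrng*, 1.34 to 1.53 for *Chrna1*, 1.03 to 1.30 for *Chrnd* and 0.59 to 0.77 for *Chrnb1*.

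Levels of different genes were compared per kb of exon sequence, as CPM divided by the length of all annotated exons of the gene. In Control muscles the order was *Chrnb1* (27.0 ± 1.95 CPM per kb, SD, n = 6), *Chrne* (9.62 ± 0.974), *Chrna1* (6.72 ± 0.812), *Chrnd* (2.04 ± 0.288) and *Chrng* (0.844 ± 0.275), and no neighbours in that order had overlapping ranges. In *FRAIL1* muscles *Chrna1* (18.5 ± 4.38 CPM per kb) stood above *Chrne* (12.4 ± 1.30), between *Chrnb1* (44.8 ± 9.85) and the pair *Chrnd* (4.75 ± 1.29) and *Chrng* (3.10 ± 0.855). *Chrna1* and *Chrne* thus changed places. Their ranges overlapped in *FRAIL1* muscles, as did those of *Chrnd* and *Chrng*, although within each of the 6 muscles *Chrna1* exceeded *Chrne* and *Chrnd* exceeded *Chrng*. The position of *Chrng* below *Chrnd* depended on the length used: with the longest annotated transcript in place of all exons their ranges overlapped in both groups, and *Chrnd* exceeded *Chrng* in 5 of 6 Control and 3 of 6 *FRAIL1* muscles.

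**Figure D2:**
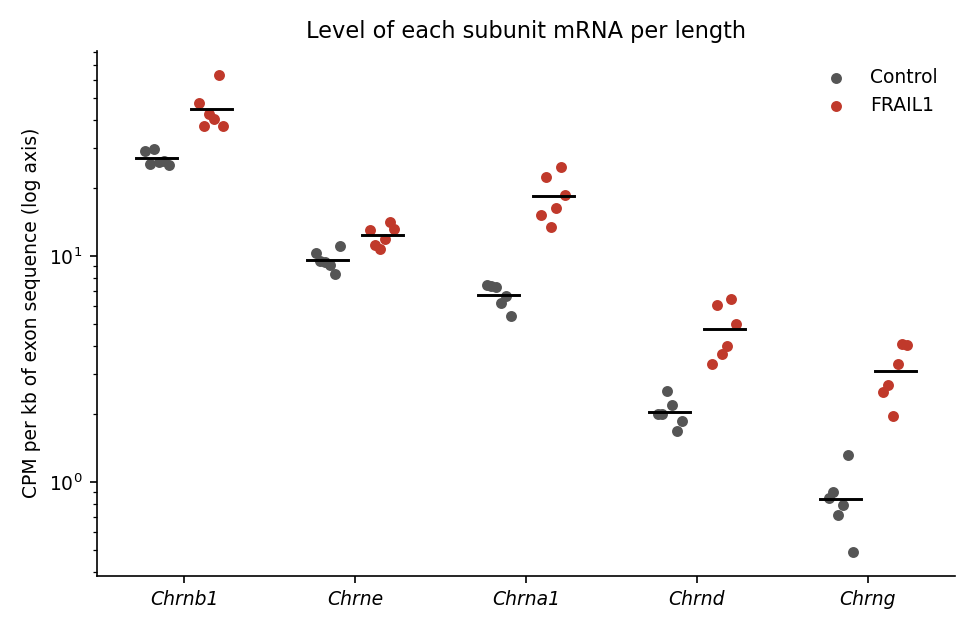
Level of each subunit mRNA in CPM per kb of exon sequence, on a log axis, ordered by the Control mean. Points are muscles, 6 per group, and horizontal lines are group means. *Chrne* lies above *Chrna1* in Control muscles (9.62 against 6.72) and below it in *FRAIL1* muscles (12.4 against 18.5).

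Summed over the 5 genes, the level was 46.2 ± 2.74 CPM per kb (SD, n = 6) in Control muscles and 83.5 ± 14.8 CPM per kb (SD, n = 6) after *FRAIL1* transfer. The α1 transcript made up 14.5 ± 1.32% of that sum in Control and 22.1 ± 3.50% in *FRAIL1* muscles, and its ranges did not overlap (12.3 to 16.2% and 18.7 to 28.0%). The ε transcript made up 20.9 ± 2.34% and 15.0 ± 1.53% of the sum, a smaller share in *FRAIL1* muscles although its own level was higher there. The β1 transcript was the most abundant in both groups, at 58.4 ± 1.34% and 53.5 ± 5.07%. These shares are descriptions without a test.

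The share of γ among the alternating γ and ε transcripts, *Chrng* over *Chrng* plus *Chrne* per kb of exon sequence, does not depend on library scaling. It was 7.57, 8.73, 7.02, 7.98, 13.7 and 4.23% in Control muscles 1 to 6. It was 16.2, 19.4, 15.4, 21.9, 22.3 and 23.3% in *FRAIL1* muscles 1 to 6. Every *FRAIL1* muscle lay above every Control muscle, and Control muscle 5 came closest. The means were 8.21 ± 3.12% and 19.7 ± 3.35% (SD, n = 6 each), so ε remained the more abundant of the alternating subunits in all 12 muscles. The absolute share rests on the length of *Chrng*, whose exon union is 4163 bases and whose longest transcript is 2780 bases, and was 11.3% and 26.0% with the longest transcripts. In plain read counts, which need no length, *Chrng* measured 0.223 ± 0.0936 reads for each read of *Chrne* in Control and 0.610 ± 0.127 in *FRAIL1* muscles (SD, n = 6 each).

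**Figure D3:**
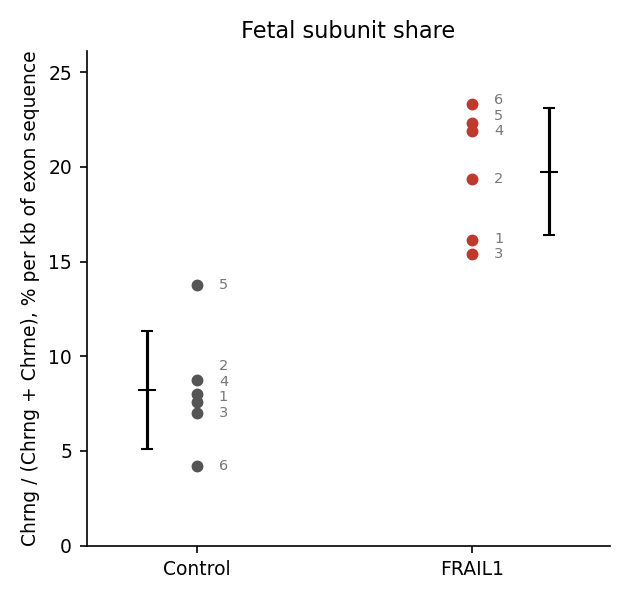
*Chrng* as a percentage of *Chrng* plus *Chrne*, both per kb of exon sequence, in the 12 TA muscles on a linear axis from 0. Points are muscles, their replicate numbers are stacked beside them in the order of the values, and the tick and bar beside each group are the mean ± SD (n = 6). The Control muscles lie between 4.23 and 13.7% and the *FRAIL1* muscles between 15.4 and 23.3%.

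Of the 11 other nicotinic subunit genes, which encode mainly neuronal receptors, 4 passed the filter on low counts and 1 passed the test. Over all genes tested, 6.28% passed. *Chrnb2*, the β2 subunit of neuronal receptors, measured 0.608 ± 0.0922 and 1.04 ± 0.0914 CPM (SD, n = 6 each; log2 fold change 0.77, standard error 0.176, edgeR adjusted p = 0.0227). Its groups did not overlap, and without Control muscle 1 the adjusted p was 0.0553. *Chrna10*, an α subunit of cochlear hair cell receptors, was the only other subunit gene above 1 CPM on average in Control muscles. Its Control mean was 11.5 ± 1.72 CPM and its *FRAIL1* mean 7.46 ± 2.30 CPM (SD, n = 6 each), with a log2 fold change of -0.63 (standard error 0.202, edgeR adjusted p = 0.0735). All 6 *FRAIL1* values of *Chrna10* lay below all 6 Control values, as for 1.77% of genes tested, and without *FRAIL1* muscle 5 its adjusted p was 0.0244 with a log2 fold change of -0.48. Without a block, *Chrna10* was called lower by DESeq2 (adjusted p = 0.0193) and by limma (adjusted p = 0.0289). It passed in 7 of 24 alternative settings. Over all genes DESeq2 called 2211 and limma 1836, against 974 in edgeR. *Chrna4* (0.545 and 0.648 CPM, adjusted p = 0.696) and *Chrna9* (0.391 and 0.715 CPM, adjusted p = 0.112) did not pass. The remaining 7 averaged at most 0.185 CPM in either group.

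Of the genes whose products cluster and hold the receptor at the synapse, 1 passed the test. Of 19 such genes tested, edgeR called 1 higher and none lower in *FRAIL1* muscles, a share near the 4.43% of all genes tested that were higher. In edgeR 5 had an unadjusted p under 0.05. The share of all genes with such a p was not counted, so these counts, here and below, are not read as a result. Such a p was common, since *Crk* at 0.0502 in edgeR had an adjusted p of 0.181. DESeq2 called 3 higher and 1 lower, and limma called 2 higher and 1 lower. In edgeR 3 passed without *FRAIL1* muscle 3 and 2 without *FRAIL1* muscle 2 or Control muscle 2. Over all genes tested, edgeR called 974, DESeq2 2211 and limma 1836, and edgeR 2110, 1579 and 413 without those muscles in turn. The median log2 fold change of the 19 was 0.0397. The one past the threshold was *Pak1*, a kinase downstream of agrin signalling, at 34.5 ± 1.95 CPM in Control and 54.8 ± 10.6 CPM in *FRAIL1* muscles (SD, n = 6 each; log2 fold change 0.67, standard error 0.102, edgeR adjusted p = 0.00328). *Rapsn*, the scaffold that binds the receptor from inside the fiber, measured 34.1 ± 2.77 and 32.2 ± 1.90 CPM (SD, n = 6 each), and its log2 fold change was -0.08 (standard error 0.0622). *Musk*, the receptor kinase that drives clustering, was at 3.45 ± 0.512 and 3.82 ± 1.22 CPM (SD, n = 6 each), with a log2 fold change of 0.14 (standard error 0.184). The *Musk* values overlapped throughout, with *FRAIL1* muscle 2 highest at 6.04 CPM and *FRAIL1* muscle 3 lowest at 2.42 CPM. *Agrn*, the nerve-derived and muscle-derived organizer of the synapse, and *Dok7*, the adaptor that activates MuSK, had log2 fold changes of 0.11 (adjusted p = 0.330) and 0.06 (adjusted p = 0.723). *Lrp4*, the agrin co-receptor, measured 12.7 ± 1.72 and 15.7 ± 1.18 CPM and had the adjusted p nearest to the threshold among these named genes, 0.0529 (log2 fold change 0.30, standard error 0.0888), and 0.0403 without Control muscle 2.

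Genes for the breakdown of acetylcholine and for receptor assembly did not pass edgeR's test without a block. None of 4 breakdown genes was called (edgeR, adjusted p under 0.05), with 1 of them at an unadjusted p under 0.05. *Ache*, the esterase of the synaptic cleft, measured 62.1 ± 6.93 and 69.2 ± 2.09 CPM (SD, n = 6 each; log2 fold change 0.16, adjusted p = 0.157). *Colq*, its collagen-tailed anchor, measured 8.20 ± 1.15 and 8.57 ± 0.797 CPM (log2 fold change 0.06, adjusted p = 0.719). Without a block, DESeq2 and limma called none of the 4 either, while *Prima1*, a membrane anchor of the esterase, was called lower by DESeq2 with the replicate block (adjusted p = 0.00982) and by edgeR with the block and without both muscles numbered 5 (adjusted p = 0.0404). Of 8 genes for folding and assembly of receptor subunits edgeR called none, with 1 at an unadjusted p under 0.05, DESeq2 called 1 and limma none, and edgeR called 1 without *FRAIL1* muscle 3. The gene called was *Hspa5*, lower each time. EdgeR with the replicate block also called it lower (log2 fold change -0.24, adjusted p = 0.0378). The median log2 fold change of the 8 was 0.00143. A p-value that misses the threshold does not show that these genes were at equal levels.

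**Figure D4:**
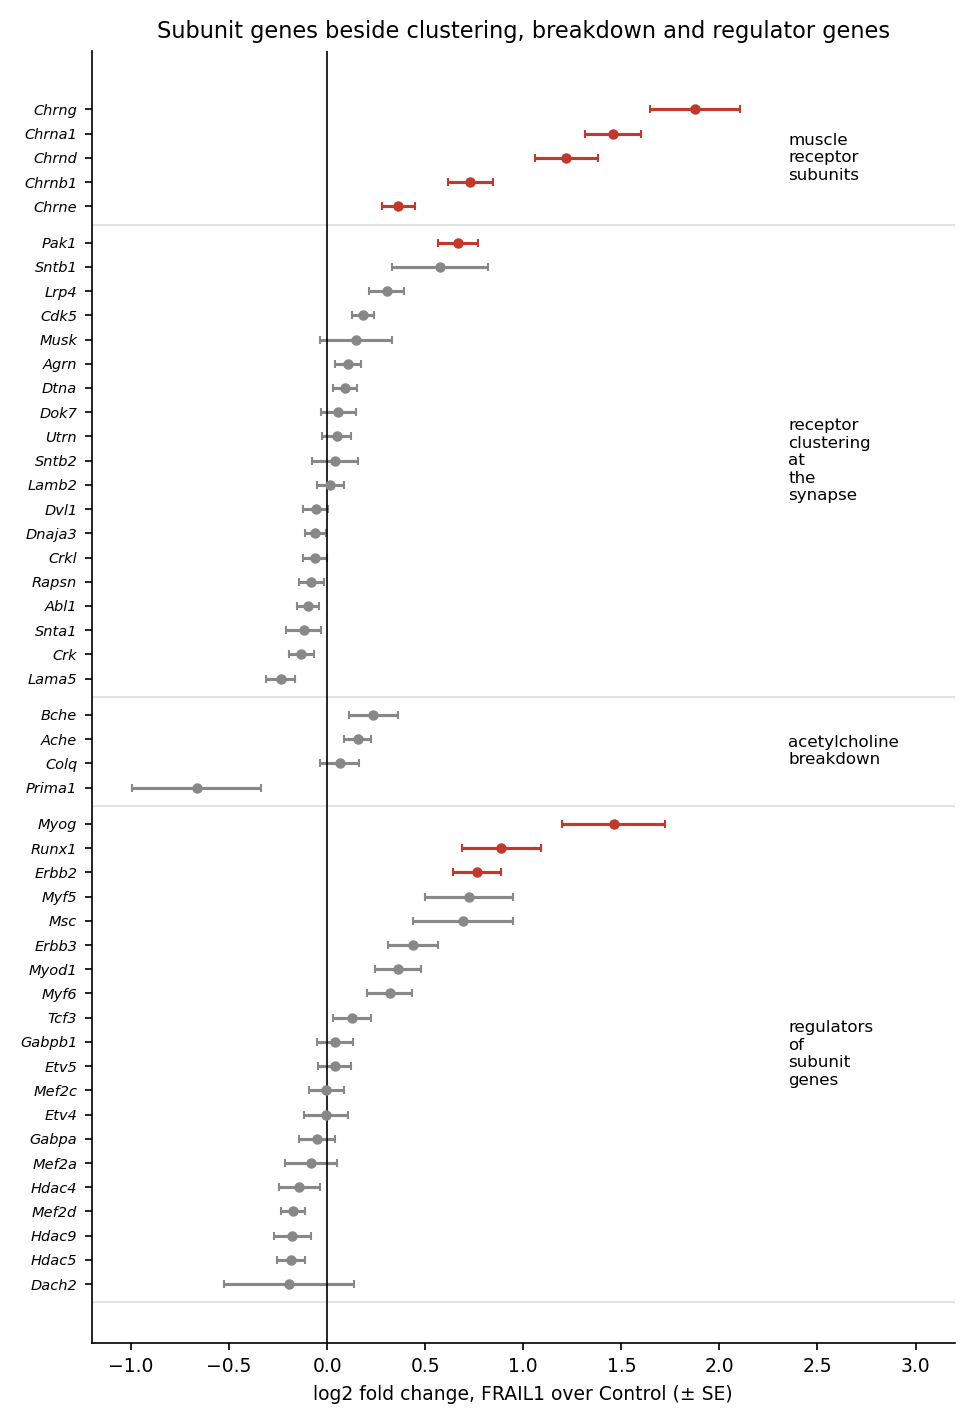
Log2 fold change of *FRAIL1* over Control muscles with its standard error for the 5 subunit genes and the tested genes of the clustering, acetylcholine breakdown and regulator lists, sorted within each list. Red marks an adjusted p under 0.05 in edgeR's quasi-likelihood test, and grey marks the rest. The 5 subunit genes are all red, from 0.36 to 1.88, while 1 of 19 clustering genes, 0 of 4 breakdown genes and 3 of 20 regulators are red.

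Among 20 tested transcriptional and signalling regulators of subunit genes, edgeR called 3 higher and none lower. Over all genes tested, 4.43% were higher and 1.85% lower. The median log2 fold change of the 20 was 0.0388, and 10 had an unadjusted p under 0.05. DESeq2 called 6 higher and 1 lower, and limma 3 higher and 1 lower. In edgeR 7 passed without *FRAIL1* muscle 3. Calls were also more numerous over all genes in those settings (2211 with DESeq2, 1836 with limma and 2110 without *FRAIL1* muscle 3, against 974). *Myog* encodes myogenin, the basic helix-loop-helix factor that binds E-boxes and activates subunit genes after denervation. It ranged from 8.71 to 13.5 CPM in Control muscles (median 12.7) and from 20.3 to 64.1 CPM in *FRAIL1* muscles (median 27.5). The groups were separate, with *FRAIL1* muscle 5 at 64.1 CPM and the others at 32.0 CPM or less. Its log2 fold change was 1.46 (standard error 0.261, edgeR adjusted p = 0.0124), and it passed in all 24 alternative settings. *Myod1*, a related factor, measured 28.0 ± 4.87 and 36.0 ± 5.01 CPM (SD, n = 6 each; log2 fold change 0.36, adjusted p = 0.0725).

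*Erbb2*, a neuregulin co-receptor, rose from 5.86 ± 0.349 to 9.95 ± 2.16 CPM (SD, n = 6 each; log2 fold change 0.76, standard error 0.122, edgeR adjusted p = 0.00391). *Runx1*, a transcription factor that denervated muscle expresses, measured 10.4 ± 2.64 and 19.3 ± 5.59 CPM (log2 fold change 0.89, adjusted p = 0.0277). It passed in 17 of 24 alternative settings. Its adjusted p was 0.0612, 0.0557 and 0.0505 without Control muscles 2, 5 and 6 and 0.0503 without *FRAIL1* muscle 5. Without both muscles numbered 5 it was 0.0873, or 0.202 with the replicate block. The Ets factor genes *Gabpa* and *Etv5*, whose products bind N-boxes, had log2 fold changes of -0.05 (adjusted p = 0.750) and 0.04 (adjusted p = 0.810). *Hdac4* and *Dach2*, which link nerve activity to myogenin, had values of -0.14 (adjusted p = 0.394) and -0.19 (adjusted p = 0.743).

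Of 19 genes known to respond to denervation, 8 were higher and 1 was lower after *FRAIL1* transfer, against 4.43% higher and 1.85% lower over all genes tested. Their median was 0.62 on the log2 scale. The list was chosen with earlier results of these data known, and the authors had reported *Cdkn1a* and *Runx1* as increased. The counts are therefore a description and no independent test. *Ncam1*, an adhesion molecule that spreads along denervated and regenerating fibers, rose from 16.8 ± 1.55 to 42.9 ± 12.6 CPM (SD, n = 6 each; log2 fold change 1.35, standard error 0.157, edgeR adjusted p = 0.00128). The embryonic myosin *Myh3* and the perinatal myosin *Myh8* rose by log2 fold changes of 2.16 (adjusted p = 0.0124) and 1.84 (adjusted p = 0.0227), although the *Myh8* adjusted p was 0.0502 and 0.0519 without Control muscles 2 and 3. *FRAIL1* muscle 5 was highest for both, at 541 and 876 CPM, against at most 216 and 390 CPM in the other *FRAIL1* muscles. Over the 24 alternative settings the log2 fold changes were as low as 1.69 and 1.26. *Ankrd1*, *Cdkn1a* and *Kcnn3*, which encode a stress-responsive ankyrin repeat protein, a cell cycle inhibitor and a calcium-activated potassium channel, rose by 1.49, 1.02 and 0.99 on the log2 scale (adjusted p = 0.00485, 0.0177 and 0.0217). Without both muscles numbered 5 the adjusted p of *Cdkn1a* was 0.0644, or 0.109 with the replicate block, and that of *Kcnn3* was 0.0592. Without Control muscle 1 that of *Kcnn3* was 0.0543. The others that were higher were *Myog* and *Runx1*, which are also counted among the regulators above.

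Some members of that list had negative log2 fold changes. The ubiquitin ligase genes *Trim63* and *Fbxo32*, induced in many forms of atrophy, had log2 fold changes of -0.31 (adjusted p = 0.274) and -0.50 (adjusted p = 0.313). DESeq2 with the replicate block, which called 2875 genes in all, called both lower (adjusted p = 0.00879 and 0.0316). EdgeR without *FRAIL1* muscle 2 called *Trim63* lower (adjusted p = 0.0433). *Trim63* thus passed in 2 and *Fbxo32* in 1 of 24 alternative settings. *Fbxo31* was the member that was lower, with a log2 fold change of -0.36 (adjusted p = 0.0484), and it passed in 14 of 24 alternative settings. Its adjusted p lay above the threshold when any 1 Control muscle or *FRAIL1* muscle 1, 4 or 6 was left out, with 0.0996 as the highest value.

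**Figure D5:**
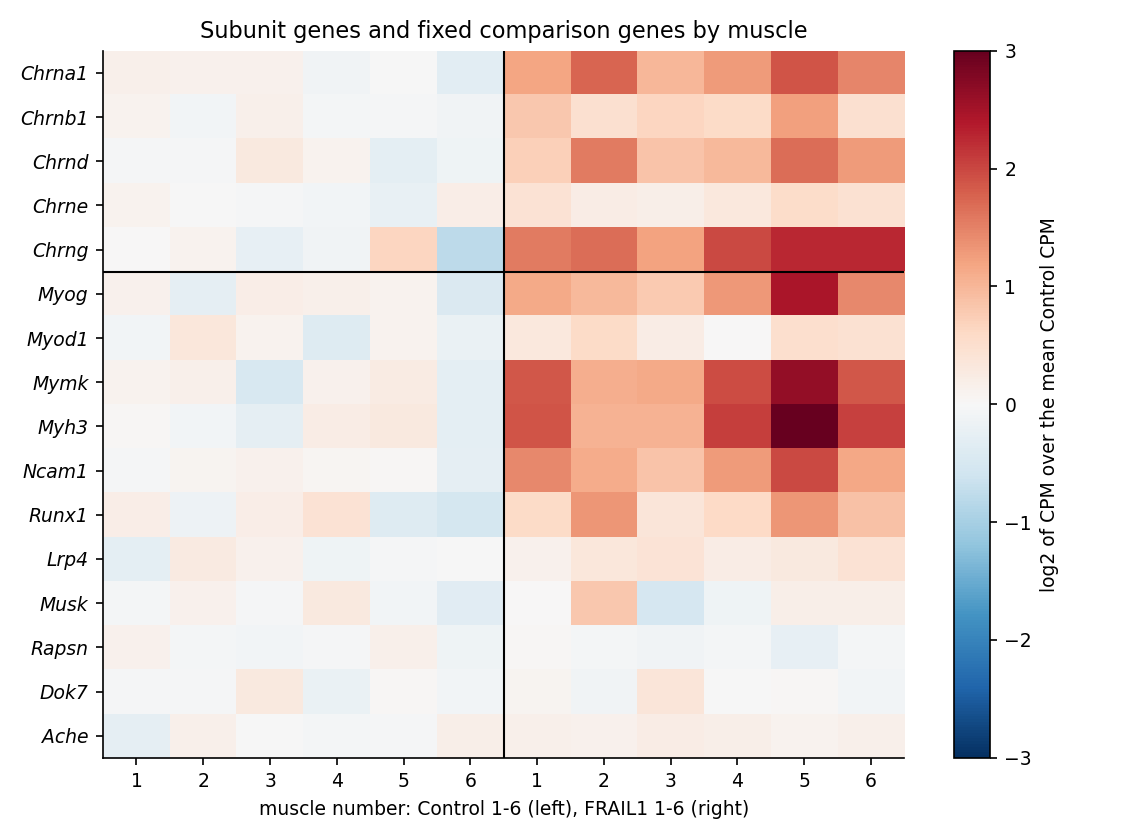
Log2 of the CPM of each muscle over the mean Control CPM, for the 5 subunit genes above the line and 11 comparison genes below it, in Control muscles 1 to 6 (left) and *FRAIL1* muscles 1 to 6 (right). Red is higher and blue is lower than the Control mean. The rows of *Chrna1*, *Chrnd*, *Chrng*, *Myog*, *Mymk*, *Myh3* and *Ncam1* are red in all 6 *FRAIL1* muscles, and those of *Musk*, *Rapsn* and *Dok7* are mixed or pale.

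Of 9 markers of satellite cells and regenerating fibers, 5 were higher (*Mymk*, *Mymx*, *Myh3*, *Myh8* and *Myl4*), against 4.43% of all genes tested. *Myh3* and *Myh8* are also counted among the denervation genes above, so the lists are not independent. The median log2 fold change of the 9 was 1.76, or 1.33 without *FRAIL1* muscle 5. DESeq2 called 8 of the 9 and limma 6, and edgeR with the replicate block called 8. Over all genes, these settings called 2211, 1836 and 2186, against 974 in edgeR without a block. *Mymk*, the myomaker gene needed for myoblast fusion, rose from 4.47 ± 0.842 to 16.2 ± 6.60 CPM (SD, n = 6 each; log2 fold change 1.85, standard error 0.246, edgeR adjusted p = 0.00265), and *Mymx*, its fusion partner, rose by 1.76 on the log2 scale (adjusted p = 0.00324). *Pax7*, the satellite cell transcription factor, measured 2.40 ± 0.616 and 3.54 ± 0.541 CPM (log2 fold change 0.56, adjusted p = 0.0634). The summed level of the 9 markers ranged from 835 to 1514 CPM in Control and from 1246 to 4793 CPM in *FRAIL1* muscles, with 4793 in *FRAIL1* muscle 5 and at most 3154 in the others. On average *Actc1* alone made up most of that sum, at 822 CPM in Control and 1684 CPM in *FRAIL1* muscles. The groups of *Actc1* overlapped, and it did not pass in edgeR (log2 fold change 1.035, adjusted p = 0.0646). The sum therefore describes mainly *Actc1*.

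The 7 fibroblast markers had a median log2 fold change of 0.75, or 0.48 without *FRAIL1* muscle 5, 1 of them passed (*Col1a2*, adjusted p = 0.0472), and their sum ranged from 1217 to 2352 CPM in Control and from 2423 to 6204 CPM in *FRAIL1* muscles, with at most 3094 CPM outside muscle 5. DESeq2 and limma each called 3 of the 7, and in edgeR 4 passed without *FRAIL1* muscle 3 and 2 without *FRAIL1* muscle 2. *Col1a2* passed in 10 of 24 alternative settings, and its adjusted p reached 0.0929 when 1 muscle was left out, being above the threshold without any 1 of Control muscles 1 to 5 or *FRAIL1* muscles 1, 4, 5 and 6. None of the 7 macrophage markers passed in edgeR, with 5 at an unadjusted p under 0.05, 4 called by DESeq2 and 2 by limma. EdgeR called 3 with the replicate block (*Adgre1*, *Csf1r* and *Lyz2*), 5 without *FRAIL1* muscle 3 and 2 without *FRAIL1* muscle 2. Their median was 0.69 and their sums were 158 to 250 CPM in Control and 196 to 570 CPM in *FRAIL1* muscles. None of the 8 Schwann cell markers passed in edgeR, with 2 at an unadjusted p under 0.05, 1 called higher and 1 lower by DESeq2 and none by limma. In edgeR 1 passed without *FRAIL1* muscle 1 or 2 and 1 with the replicate block. They had a median of -0.15 and sums of 84.9 to 150 CPM and 74.1 to 111 CPM. The 6 fast muscle markers had a median of -0.26 and 1 was lower (*Ckm*, adjusted p = 0.0482), with sums of 150800 to 178300 CPM and 105300 to 160200 CPM. DESeq2 and limma each called 4 of the 6 lower, and in edgeR 4 passed when *FRAIL1* muscle 3 was left out and 2 when *FRAIL1* muscle 2 or 5 was. *Ckm* passed in 12 of 24 alternative settings, and its adjusted p reached 0.0912 when 1 muscle was left out, being above the threshold without any 1 Control muscle or *FRAIL1* muscle 1, 4 or 6. Of the 4 heart markers, 2 were tested and none was called by edgeR, DESeq2 or limma without a block, with 1 at an unadjusted p under 0.05. *Myh6* was called lower by DESeq2 with the replicate block (adjusted p = 0.00791) and by edgeR with the block and without both muscles numbered 5 (adjusted p = 0.0466). The 4 summed to 6.47 to 8.25 CPM and 3.18 to 7.84 CPM. For comparison with these counts, over all genes tested edgeR called 974, DESeq2 2211 and limma 1836. EdgeR called 2186 with the replicate block, and 2110, 1579, 969 and 364 without *FRAIL1* muscle 3, 2, 5 and 1 in turn. No marker of these lists was at 0 in all muscles. The part of these cell markers in the subunit results was not tested.

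The genes whose log2 CPM followed each subunit most closely over the 12 muscles were found by Pearson's r, which the difference between the groups also enters. For *Chrna1* they were *Sln* (r = 0.967), *Dpp3* (0.962) and *Aif1l* (0.959), and for *Chrnd* they were *Sln* (r = 0.988), *Plekhh1* (0.962) and *Tnfrsf23* (0.955). *Sln*, which encodes the calcium pump inhibitor sarcolipin, headed both lists and rose from 16.8 to 90.4 CPM on average (log2 fold change 2.43, edgeR adjusted p = 0.00265). For *Chrng* they were *Dpp3* (r = 0.966), *Ninj1* (0.957) and the myomaker gene *Mymk* (0.951). For *Chrnb1* they were *E2f2* (r = 0.977), *Ankrd1* (0.975) and *Cldn2* (0.974), and for *Chrne* they were *Lin37* (r = 0.953), *Tal2* (0.940) and *2310020H05Rik* (0.937). None of the genes named for *Chrnb1* or *Chrne* was named for another subunit. The muscles share libraries, mice and the group difference, and these values are descriptions over n = 12 muscles.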

How the data were processed

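RNA-seq counts of 12 TA muscles were analysed, 6 per group. The authors deposited raw counts of reads by gene, not normalized, made from poly(A)-selected paired-end reads with Trimmomatic, STAR 2.7.8a (mm10) and featureCounts 2.0.1. The strand setting is not given in the sources used here. Of 27179 genes, 25275 were matched to a symbol by NCBI Gene ID, leaving 0.280% of all counts in genes without one. Libraries of a group differed by more than sampling noise (chi-square per degree of freedom of 14.5 or more).

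Genes were filtered with filterByExpr, scaled with TMM (factors 0.935 to 1.19) and tested in R 4.3.3 by edgeR 4.0.16 (quasi-likelihood, robust, Benjamini-Hochberg adjustment over all 15502 genes, no block). The test was checked on simulated data. Standard errors were derived from the F statistic. Exon lengths came from GENCODE vM21, copies were searched with BLAST 2.17.0, and correlations used log2 CPM with a prior count of 2. Alternatives were a replicate block, DESeq2 1.42.0, limma 3.58.1 voom with quality weights, other scalings and filters, each muscle left out, and other lengths. Leaving out both muscles 5 without a block and the RefSeq-paired transcript length were chosen after seeing the data.

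The members and lists were chosen with earlier results of these data known. Named were the 5 members, list genes past the threshold, a fixed set of synaptic, regulator and denervation genes, other nicotinic genes past the filter, and the 3 genes most similar to each member. *Trim63*, *Fbxo32*, *Actc1* and *Hspa5* were added after their values were seen. A further gene of the fixed set is not reported here. Whether same-numbered muscles came from the same mouse is not stated in the labels, so p-values measure the spread between muscles.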

Additional observations from a re-analysis of the deposited data

How the results depend on the processing

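Over 24 alternative settings, the log2 fold changes of *Chrna1*, *Chrnb1*, *Chrnd* and *Chrng* kept their direction and stayed past the threshold. *Chrne* kept its direction, with log2 fold changes of 0.32 to 0.41 when each muscle was left out in turn, and lost the threshold without Control muscle 2 (0.3585), Control muscle 3 (0.3572) or *FRAIL1* muscle 1 (0.3473). The cause was not tested. The number of genes past the threshold was 974 (687 higher, 287 lower), and moved to 2211 with DESeq2 (1272 higher, 939 lower), 1836 with limma voom, and 364 to 2110 when each muscle was left out. The *Chrng* share of *Chrng* plus *Chrne* moved with the length used: it was 26.0% in *FRAIL1* muscles with the longest transcripts and 25.7% with the RefSeq-paired transcripts, and 17.9% (Control) and 37.6% (*FRAIL1*) in counts without a length. The order of the mean levels was the same with each length, although with the longest or RefSeq-paired transcripts *Chrnd* exceeded *Chrng* in 3 of 6 *FRAIL1* muscles.

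Both groups carry the replicate numbers 1 to 6. Deviations from the group means correlated between same-numbered muscles at 0.254, 0.162, 0.282, 0.263, 0.0547 and 0.185, below 0.1 for number 5, and 10 of 12 muscles correlated best with their own number, a hint from the data and not from the labels. With the replicate block, all 5 subunit genes stayed past the threshold (log2 fold change 0.36 and adjusted p = 0.0163 for *Chrne* in edgeR), *Lrp4*, *Myod1*, *Pax7* and *Chrna10* passed, *Runx1* (adjusted p = 0.0678) and *Col1a2* did not, and 2186 genes passed in all (1159 higher, 1027 lower), 2875 with the block in DESeq2 and 2305 with the block and without both muscles numbered 5 (1093 higher, 1212 lower). Low counts kept 7 nicotinic genes from being tested.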
